A study of Mus musculus with 8 samples.

Results

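Potassium channel genes were followed in the cortex of plaque-forming mice given bexarotene or vehicle. The members were the genes whose symbol begins with Kcn and ends in a family letter or letters and a number, without Kcnj8 and Kcne2, and each gene was represented by its transcript row with the highest mean count. This gave 90 of the 22869 genes in the count table. Of these, 78 passed the filter on low counts and were tested, among 16069 genes tested in all, and 12 did not pass.

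Potassium channels let potassium flow along its gradient, which sets the resting potential of neurons and glia and ends each action potential. Voltage-gated (Kv) channels are tetramers of pore-forming subunits that open on depolarisation. Silent Kv subunits form no channel alone and modify the Kv2 pore, while auxiliary subunits change gating and traffic. Calcium- and sodium-activated channels open after activity, inward rectifiers (Kir) hold the membrane near rest, buffer potassium in glia or follow G proteins, and two-pore-domain (K2P) channels carry leak current. In cortex, members of these families shape fast spiking in interneurons, spike-frequency adaptation in pyramidal cells and potassium uptake by astrocytes.

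The mice were of APP/PS1 genotype and C57BL/6 strain, and cortex RNA was sequenced. They carry transgenes for human amyloid precursor protein and presenilin 1 and form amyloid plaques. Both groups had this genotype, and there was no wild-type group. Bexarotene, an agonist of retinoid X receptors, was given to the mice behind 4 libraries, and glycerol at 0.2 mg/kg, called vehicle here, to those behind the other 4. The sources used here do not give the dose or duration of bexarotene, nor the age or sex of the mice. They also do not say whether libraries are single mice or pools, and p-values therefore cover the spread between these 8 libraries alone.

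The libraries held 42413825 to 76542067 counts over all rows of the table. The first principal component (36.5% of the variance) separated replicates 1 and 3 of both groups from replicates 2 and 4. Vehicle replicates 1 and 3 had the female transcript Xist at 248 and 307 CPM (counts normalised by the size of each library) with at most 0.282 CPM of Y-linked transcripts. The other two vehicle libraries held Y-linked transcripts at 134 and 141 CPM and at most 0.861 CPM of Xist, and each bexarotene library had both. Bexarotene replicates 1 and 3 stood apart in a second way: the summed level of 8 markers of striatal projection neurons was 1066 and 779 CPM there, against 221 and 225 CPM in bexarotene replicates 4 and 2 and 176 to 528 CPM in the vehicle libraries. None of these 8 markers was at 0 in any library, although the labelled tissue is cortex. For several results in which bexarotene replicates 1 and 3 stood out, though not for each, values without them are therefore also given. Some results are given separately for the odd-numbered libraries (replicates 1 and 3 of both groups) and the even-numbered ones (replicates 2 and 4), as differences of mean log2 CPM. The odd-numbered vehicle libraries are those with Xist and the even-numbered ones those with Y-linked transcripts. Sex and treatment therefore cannot be told apart in either of these differences. A fit without bexarotene replicates 1 and 3 sets bexarotene replicates 2 and 4 against all 4 vehicle libraries. It therefore mixes the split of odd- and even-numbered libraries with the treatment.

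Sequences upstream of the members' transcription starts were read because the bound receptor is a DNA-binding protein whose family recognises the hexamer AGGTCA. RefSeq windows of 250 bases before the start (build GRCm38.p6) were matched by symbol for 65 of the 90 members. The letters AGGTCA, on either strand, occurred in 6 of these 65 (9.23%), namely Kcna10, Kcnf1, Kcnh1, Kcnip4, Kcnj16 and Kcnk10. Over all genes with such a window the share was 4260 of 27025 (15.8%). Kcnf1 and 1 of the 4 windows of Kcnj16 (190 and 164 bases before the start) held a pair of matches. The Kcnf1 window is shown, on the minus strand of chr12:17176889-17177138, and that of Kcnj2 because it was the member whose bexarotene libraries all lay above the vehicle libraries, on the plus strand of chr11:111065914-111066163. Capitals mark the hexamer in either orientation.
Kcnf1: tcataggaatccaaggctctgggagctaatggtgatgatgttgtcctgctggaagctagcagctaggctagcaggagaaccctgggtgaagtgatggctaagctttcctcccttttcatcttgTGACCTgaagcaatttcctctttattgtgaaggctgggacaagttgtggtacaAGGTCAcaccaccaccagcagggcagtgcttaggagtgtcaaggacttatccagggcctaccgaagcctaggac
Kcnj2: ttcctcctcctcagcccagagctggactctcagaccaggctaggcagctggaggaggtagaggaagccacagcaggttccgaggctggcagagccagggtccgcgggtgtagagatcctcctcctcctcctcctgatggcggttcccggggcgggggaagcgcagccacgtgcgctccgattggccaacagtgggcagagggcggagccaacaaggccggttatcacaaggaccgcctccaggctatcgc
The matches upstream of Kcnf1 begin 127 and 74 bases before its start, and those letters are not in the Kcnj2 window. A match is a description of letters and not a binding site.

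Per transcript length, the highest member was Kcnab2, a cytoplasmic beta subunit of Kv1 channels, at 99.2 CPM per kb averaged over the 8 libraries. Kcnj4, a strong inward rectifier of forebrain neurons, followed at 58.4 CPM per kb. Next came Kcnh3, an ether-à-go-go-like channel of the forebrain, at 41.6, and the calcium sensor Kcnip3 at 40.9 CPM per kb. These last 2 lay within 1 SD of each other in both groups, so their order does not stand beyond the spread. The large-conductance beta subunit Kcnmb4 (34.0), the leak channels Kcnk1 (31.5) and Kcnk2 (29.4), the axonal Kcna1 (27.8) and the silent subunit Kcnf1 (27.6 CPM per kb) were also high. The lowest tested member was Kcnmb1, a beta subunit best known from smooth muscle, at 0.085 CPM per kb.

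**Figure D1:**
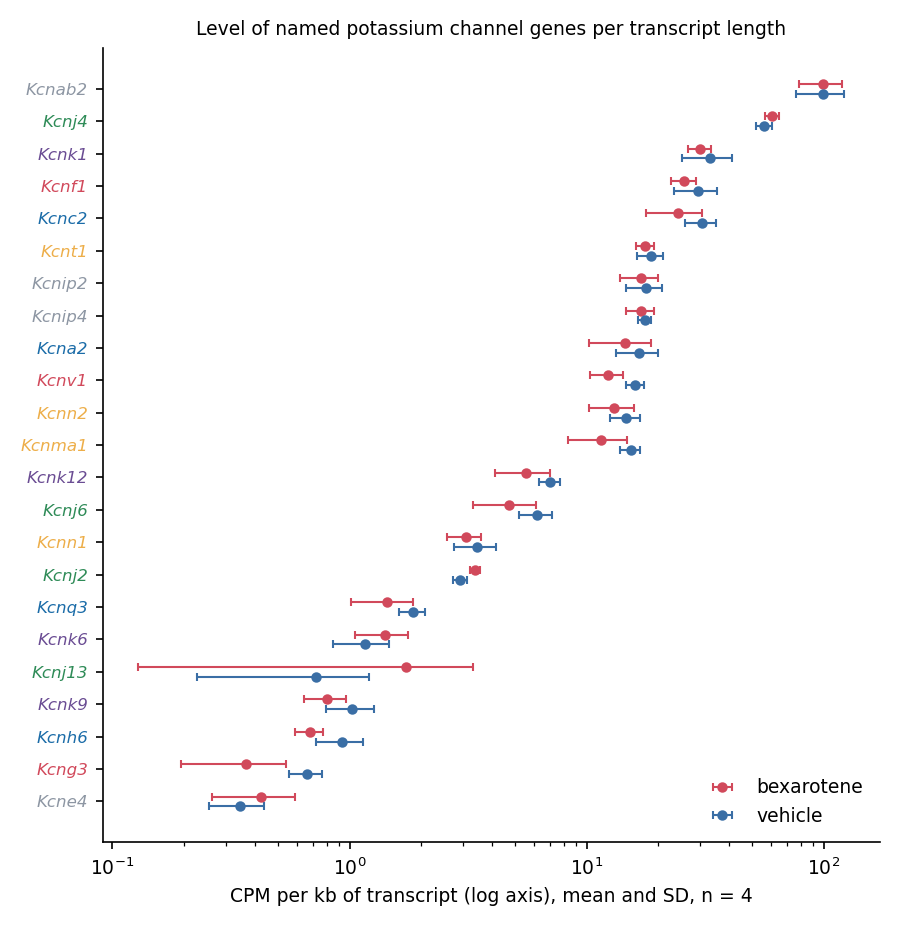
Mean level with SD (n = 4) of 23 members described below, in CPM per kb of transcript on a log axis, for bexarotene (red) and vehicle (blue). Kcnab2 leads at 99.2 CPM per kb, and the bars of the groups overlap for most of these genes, with Kcnv1, Kcnj2 and Kcng3 as exceptions.

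No member passed an adjusted p of 0.05 by the quasi-likelihood F test of edgeR, where 0.00622% of all genes tested did. The smallest adjusted p among members was 0.445, for Kcnv1. DESeq2 and edgeR's exact test also called 0 members. At an unadjusted p under 0.05, 1 member was higher (Kcnj2) and 3 were lower (Kcnv1, Kcng3 and Kcnma1). By that rule 4.88% of all genes tested were on the higher side and 3.89% on the lower side, and in this fit the members' shares were at or under that background. With the replicate number as a block, 0 members were higher and 7 lower by the same rule, against 5.53% and 4.82% of all genes tested. Those lower included Kcna2, Kcnc2, Kcng3, Kcnj6 and Kcnv1. With a term for odd- against even-numbered libraries, 1 member was higher and 10 were lower, against 6.43% and 6.27% of all genes. In Kcnj2 the lowest bexarotene library exceeded the highest vehicle library, which was so for 3.61% of genes, and in Kcnv1 the groups were apart in the other direction, which was so for 2.16%.

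The sign of the fitted difference was less even. The level was lower under bexarotene in 58 of 78 members (74.4%), against 49.8% of all genes tested, and the median log2 fold change was -0.12, against 0.00 over all genes, with single values from -0.85 to 1.27. In bulk tissue, fewer cells of a type and less RNA per cell cannot be told apart. This lean was uneven over the libraries. Bexarotene replicates 1 and 3 were the lowest pair of the 8 libraries in 25 members (32.1%), against 11.3% of all genes tested. With both left out, 39 of 78 members were lower and the median was 0.001, although that fit mixes the split of libraries with the treatment. The median log2 difference was -0.15 between odd-numbered libraries and -0.02 between even-numbered ones. Without vehicle replicate 2, 43 of 79 members were lower and the median was -0.02.

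The 6 channel classes were compared by their counts and medians. Silent Kv subunits were lower in 8 of 9 (median log2 fold change -0.20), calcium- and sodium-activated channels in 9 of 11 (-0.16), K2P channels in 7 of 10 (-0.15) and pore-forming Kv subunits in 22 of 27 (-0.14). Auxiliary Kv subunits were lower in 7 of 9, but with a median of -0.02. Inward rectifiers were the one class with most members higher: 5 of 12 were lower, with a median of 0.04. Without vehicle replicate 2 the median was 0.01 for K2P and -0.03 for calcium- and sodium-activated channels, and without vehicle replicate 3 it was -0.08 for auxiliary subunits. Pore-forming Kv subunits had -0.06 without vehicle replicate 2. The positive median of inward rectifiers did not hold without bexarotene replicate 4 (-0.08), bexarotene replicate 2 (-0.01) or vehicle replicate 3 (-0.04), and was 0.10 without vehicle replicate 4. No class had a member past the adjusted threshold, and differences between classes were not tested, since no chance test over these genes was made.

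**Figure D2:**
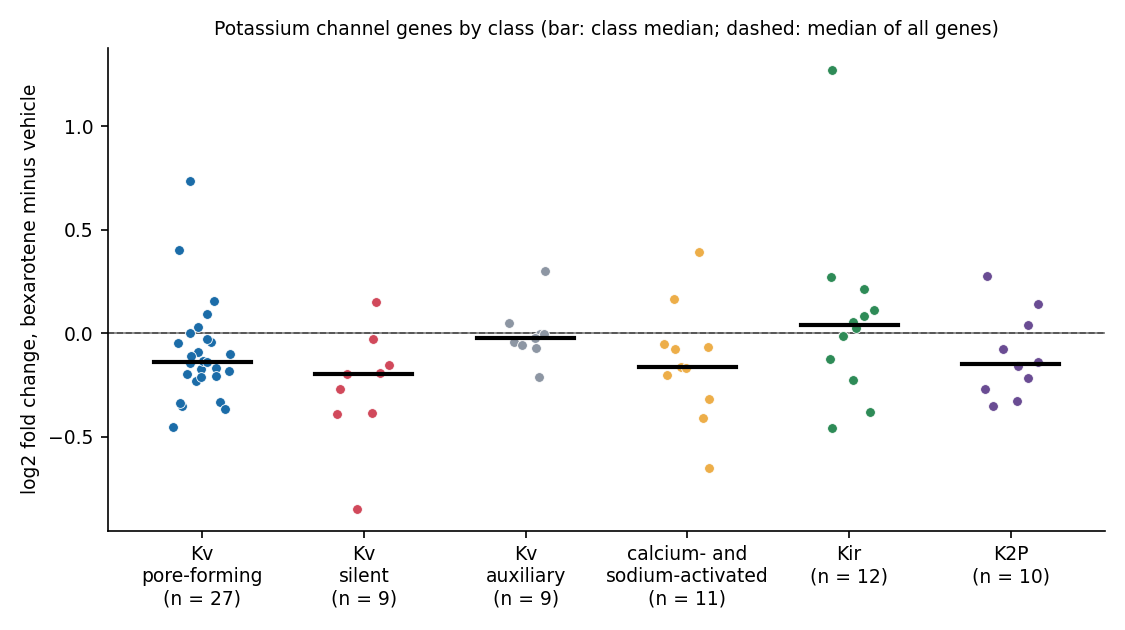
Log2 fold change of each tested member, bexarotene minus vehicle, by channel class, with black bars at the class medians and a dashed line at the median of all genes (0.00). Class medians run from -0.20 in silent Kv subunits to 0.04 in inward rectifiers, and the highest point is Kcnj13 at 1.27.

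Class levels by library show which libraries were low. For pore-forming Kv subunits, the median log2 level, set against each gene's mean over the 8 libraries, was -0.18 in bexarotene replicate 1 and -0.21 in replicate 3. Bexarotene replicates 2 and 4 had 0.03 and 0.20. In the vehicle libraries it was 0.04, 0.13, -0.05 and 0.19 in replicates 1 to 4. Bexarotene replicates 1 and 3 were thus below the other 6 libraries, and the other 2 bexarotene libraries lay within or near the vehicle range. Silent subunits were also lowest there, at -0.36 and -0.22, against 0.18 in bexarotene replicate 4 and 0.17 in vehicle replicate 4. Auxiliary subunits did not follow it, with 0.05 and 0.03 in bexarotene replicates 1 and 3. Markers of excitatory neurons, of which 5 of 6 were lower under bexarotene, were at -0.66 and -0.34 on the same scale in bexarotene replicates 1 and 3 and at -0.35 in vehicle replicate 1, and at 0.11 to 0.39 in the other 5 libraries. Their summed level was 3906 to 5506 CPM under bexarotene and 3847 to 5351 CPM under vehicle, and none was at 0. The part of these cells or of striatal tissue in the channel results was not tested.

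**Figure D3:**
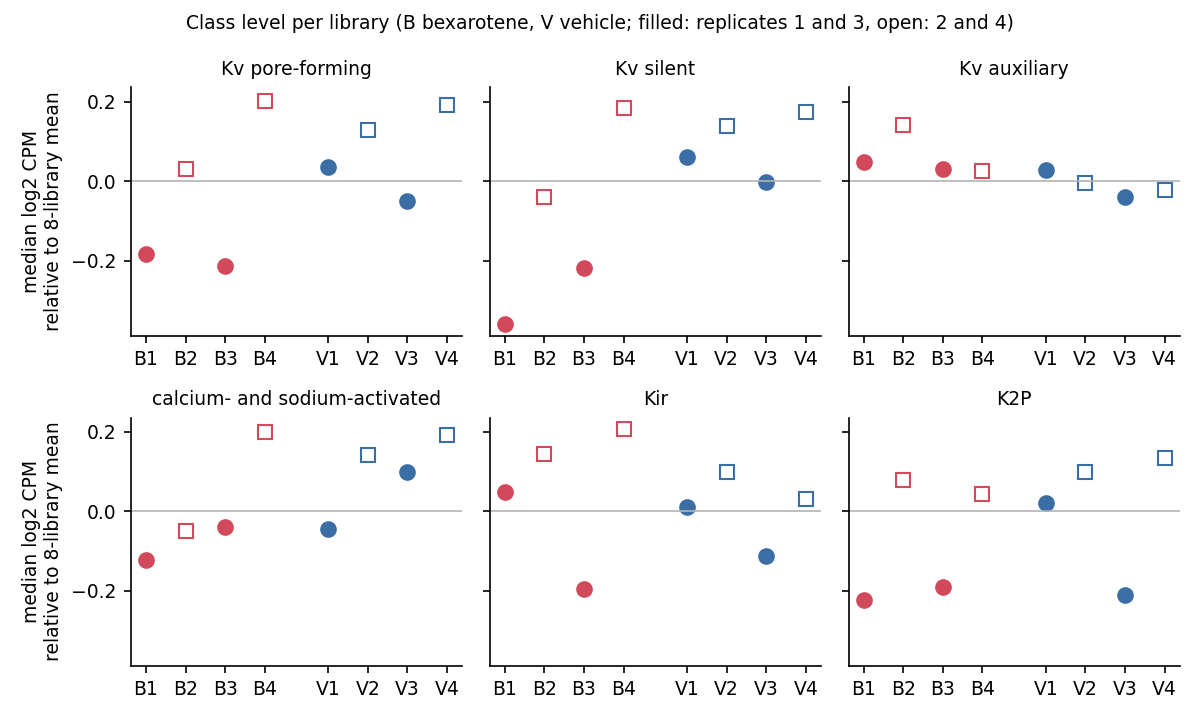
Median over each class of the log2 CPM of its members relative to their mean over the 8 libraries, by library (B bexarotene, V vehicle, filled circles replicates 1 and 3, open squares replicates 2 and 4). Pore-forming and silent Kv subunits are lowest in B1 and B3 (-0.18 and -0.21, and -0.36 and -0.22), while auxiliary subunits are not.

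Among pore-forming Kv subunits, the member with the smallest p was Kcnh6, a relative of the cardiac repolarising channel of the erg group. Its level was 2.33, 1.87, 2.35 and 2.63 CPM in bexarotene replicates 1 to 4 and at 3.46, 2.83, 2.33 and 3.94 CPM in vehicle replicates 1 to 4. Vehicle replicate 3 lay among the bexarotene libraries, and the other 3 vehicle libraries lay above them. The log2 fold change was -0.45 ± 0.22 (SE), at an adjusted p of 0.62 by the quasi-likelihood F test of edgeR. It was -0.27 between odd-numbered libraries and -0.58 between even-numbered ones, and below 0 in each of 23 other settings.

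Kv3 subunits give the brief spikes of fast-spiking interneurons, and all 4 were lower (median log2 fold change -0.20, smallest adjusted p 0.662). Kcnc2, the one with the smallest p, was at 56.99, 89.8, 53.4 and 84.7 CPM under bexarotene and at 72.3, 104, 91.7 and 91.5 CPM under vehicle. Bexarotene replicates 1 and 3 were the lowest of the 8 libraries, and replicates 2 and 4 were inside the vehicle range. The fitted log2 fold change was -0.34 ± 0.18 (SE), and it was below 0 in each of 23 other settings. Kcnc1 and Kcnc4 had -0.17 and -0.13. With bexarotene replicates 1 and 3 left out, all 4 Kv3 genes were still lower, with a median of -0.06. Without vehicle replicate 2, 3 of 4 were lower and the median was -0.04. Over all libraries interneuron markers did not share this sign: 3 of 7 were lower, with a median of 0.06. Their median difference was 0.33 between odd-numbered libraries and -0.30 between even-numbered ones, where Kv3 genes had -0.14 and -0.16. Between even-numbered libraries the sign was thus the same. The median level of interneuron markers was highest in bexarotene replicates 1 and 3 and vehicle replicate 1 (0.30, 0.29 and 0.26, against each gene's mean). Striatal projection neuron markers were highest in the same libraries (1.80, 1.29 and 0.70). The part of striatal tissue in the interneuron markers was not tested.

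The M-current, a slow current that muscarinic receptors close, is carried by Kv7 subunits. All 4 of its genes were lower (median log2 fold change -0.16). Kcnq1, the Kv7 gene outside this group, went the other way at a mean of 0.746 CPM (0.74 ± 0.60, SE). Kcnq3 was at 12.7, 20.5, 12.7 and 21.9 CPM under bexarotene and at 25.04, 20.7, 23.0 and 18.8 CPM under vehicle. The low values were those of bexarotene replicates 1 and 3, and replicates 2 and 4 were inside the vehicle range. For Kcnq3 the log2 fold change was -0.37 ± 0.20 (SE), at an adjusted p of 0.645, and it was -0.92 between odd-numbered libraries and 0.11 between even-numbered ones. Without bexarotene replicates 1 and 3, 2 of the 4 genes were lower and the median was 0.07, and without vehicle replicate 2 the median was -0.07. On even-numbered libraries alone, 2 of 4 were lower (median -0.006).

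Kv1 subunits line axons and their terminals. Kcna2, the one with the most counts among pore-forming members, was at 122, 217, 129 and 203 CPM under bexarotene and at 160, 242, 164 and 204 CPM under vehicle. In both groups replicates 1 and 3 were below replicates 2 and 4. The fitted log2 fold change was -0.20 ± 0.22 (SE). Over the 6 genes of axonal Kv1 channels and their beta subunits, 5 were lower with a median of -0.05, and 2 of 6 with bexarotene replicates 1 and 3 left out (median 0.08). On even-numbered libraries alone, 3 of 6 were lower (median -0.02). Among Kv1 genes outside that group, Kcna3, known from T cells and microglia as well as neurons, had -0.33 ± 0.19, and Kcna5, of vascular and glial cells, had 0.40 ± 0.62.

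Silent subunits included the member with the smallest p of the 78. Kcnv1, which joins Kv2 subunits and lowers their current, was at 43.6, 58.8, 50.8 and 62.5 CPM in bexarotene replicates 1 to 4 and at 63.9, 67.5, 73.9 and 76.9 CPM in vehicle replicates 1 to 4. The groups did not overlap, and the nearest libraries were bexarotene replicate 4 and vehicle replicate 1. The means were 53.9 ± 8.44 and 70.5 ± 5.89 CPM (SD, n = 4), and the log2 fold change was -0.39 ± 0.12 (SE). The quasi-likelihood F test of edgeR gave an unadjusted p of 0.00796, which was 0.445 when adjusted over all rows. An exact two-sided permutation test gave 0.0286, the minimum for groups of 4. Groups that do not overlap always give this minimum, so it adds nothing to that observation. Kcnv1 was lower in both pairs of replicates, with -0.55 between odd-numbered libraries and -0.25 between even-numbered ones, and in each of 23 other settings tried.

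Kcng3, another silent partner of Kv2, was low throughout. Its libraries had 0.527, 1.63, 0.993 and 1.79 CPM under bexarotene and at 2.45, 2.12, 2.56 and 1.78 CPM under vehicle. Bexarotene replicates 1 and 3 were the lowest, and bexarotene replicate 4 exceeded vehicle replicate 4. An exact two-sided permutation test gave 0.0571 for Kcng3. The log2 fold change was -0.85 ± 0.37 (SE), at an adjusted p of 0.571, and it was -1.74 between odd-numbered libraries against -0.18 between even-numbered ones. It was below 0 in each of 23 other settings. Kcnf1, the silent subunit with the most counts, was at 102, 127, 131 and 134 CPM under bexarotene and at 176, 118, 154 and 117 CPM under vehicle. Vehicle replicates 1 and 3 were high and the other 2 vehicle libraries were inside the bexarotene range, so that the difference was -0.51 in replicates 1 and 3 and 0.15 in replicates 2 and 4. Together with the Kv2 genes, of which Kcnb2 had -0.35 ± 0.23, 10 of 11 genes of this assembly were lower (median log2 fold change -0.20). Without bexarotene replicates 1 and 3, 5 of 11 were (median 0.01), and on even-numbered libraries alone 8 of 11 were (median -0.11).

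**Figure D4:**
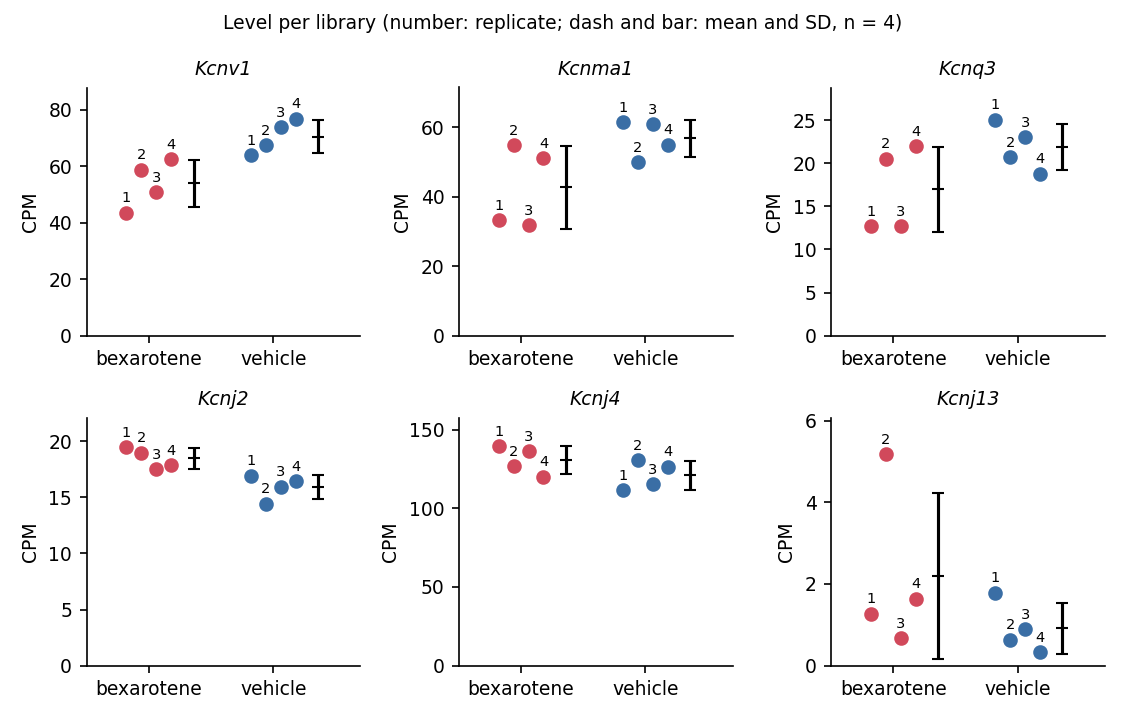
CPM by library of 6 members, with the replicate number above each point and the mean with SD (n = 4) beside it. Kcnv1 is below every vehicle library in each bexarotene library and Kcnj2 above, Kcnma1 and Kcnq3 are low in bexarotene replicates 1 and 3 alone, and Kcnj13 is high in bexarotene replicate 2 alone.

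Auxiliary subunits differed little between groups. Kcnab2 was at 323, 433, 320 and 476 CPM under bexarotene and at 296, 468, 330 and 465 CPM under vehicle. In both groups replicates 1 and 3 were low, and the log2 fold change was -0.01 ± 0.19 (SE), which was positive in 10 of 23 other settings. Calcium-sensing Kcnip subunits, which bind Kv4 channels and set the A-type current of dendrites, had log2 fold changes of -0.02 (Kcnip1), -0.07 (Kcnip2), -0.00 (Kcnip3) and -0.06 (Kcnip4). Kcnip2 was at 47.2, 30.1, 44.7 and 40.0 CPM under bexarotene and at 53.6, 39.0, 39.9 and 37.8 CPM under vehicle, where replicate 1 stood apart from the other 3. Kcnip4 was at 33.4 to 44.5 CPM under bexarotene and 39.9 to 45.6 CPM under vehicle, which overlap. Over Kv4 channels and these partners, 6 of 7 were lower with a median of -0.06, although 4 of 7 were with upper quartile scaling or library totals alone. Kcne4, a single-pass subunit that inhibits several Kv channels, was the auxiliary member with the largest positive value, 0.30 ± 0.38, at 0.672 to 1.56 CPM under bexarotene and 0.620 to 1.20 CPM under vehicle.

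Calcium-activated channels were led by Kcnma1, the pore of the large-conductance (BK) channel that speeds repolarisation. It was at 33.3, 55.0, 31.8 and 51.2 CPM under bexarotene and at 61.5, 49.98, 60.9 and 55.0 CPM under vehicle. The low values were bexarotene replicates 1 and 3, and replicates 2 and 4 were at the level of vehicle replicates 2 and 4. The log2 fold change was -0.41 ± 0.18 (SE), at an unadjusted p of 0.0489 and an adjusted p of 0.578. It was -0.91 between odd-numbered libraries and 0.02 between even-numbered ones. Its beta subunits Kcnmb1, Kcnmb2 and Kcnmb4 had -0.65 ± 0.52, -0.05 ± 0.36 and -0.07 ± 0.32.

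Small-conductance (SK) channels, which give the afterhyperpolarisation, were lower in 3 of 4 with the intermediate-conductance Kcnn4 (median log2 fold change -0.16). Kcnn1 was at 10.5 to 15.02 CPM under bexarotene and 11.5 to 17.6 CPM under vehicle, with a log2 fold change of -0.16 ± 0.16 (SE). Kcnn2 was at 17.9 to 28.2 and 20.6 to 29.4 CPM, with -0.17 ± 0.16. Both pairs of ranges overlap, and both genes were higher, at 0.02 and 0.07, with bexarotene replicates 1 and 3 left out. Between even-numbered libraries alone both were lower, at -0.20 and -0.06. Kcnt1, a sodium-activated channel linked to epilepsy, was at 91.7 to 114 CPM under bexarotene and 98.7 to 129 CPM under vehicle, with -0.08 ± 0.10, and 0.01 without vehicle replicate 2. Its relative Kcnt2 had -0.32 ± 0.34, with -0.998 between odd-numbered libraries and 0.15 between even-numbered ones.

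Inward rectifiers differed in sign between groups. Strong rectifiers of the Kir2 group, which hold the resting potential, were higher in 4 of 4 (median log2 fold change 0.16). Kcnj2 was at 19.5, 19.0, 17.5 and 17.9 CPM in bexarotene replicates 1 to 4 and at 16.9, 14.4, 15.9 and 16.4 CPM in vehicle replicates 1 to 4. The groups did not overlap, with the nearest libraries at 17.5 and 16.9 CPM. The means were 18.5 ± 0.915 and 15.9 ± 1.08 CPM (SD, n = 4). The log2 fold change was 0.21 ± 0.09 (SE), at an unadjusted p of 0.0398 and an adjusted p of 0.562. An exact two-sided permutation test gave 0.0286, which groups of 4 that do not overlap always give. Kcnj2 was higher by 0.17 between odd-numbered libraries and by 0.26 between even-numbered ones, and higher in each of 23 other settings. By the quasi-likelihood F test, its unadjusted p rose to 0.0701 with the replicate block and to 0.104 without bexarotene replicate 1. It fell to 0.000989 with the length and GC offset, where the smallest adjusted p of any member was 0.614.

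The other Kir2 genes were closer to the spread. Kcnj4 was at 139, 127, 136 and 120 CPM under bexarotene and at 112, 130, 115 and 126 CPM under vehicle. Bexarotene replicates 1 and 3, those with the highest striatal marker sums, were the highest, and the others overlapped. Fitted over all libraries it was 0.11 ± 0.08 (SE) on the log2 scale, with 0.28 between odd-numbered libraries and -0.06 between even-numbered ones. Kcnj12 had 0.03 ± 0.14 and Kcnj14 had 0.27 ± 0.32. With bexarotene replicates 1 and 3 left out, all 4 Kir2 genes were still higher, with a median of 0.13. On even-numbered libraries alone 2 of 4 were lower (median 0.08). On odd-numbered libraries alone, with the length and GC offset (with or without the block), and without bexarotene replicate 2, bexarotene replicate 4 or vehicle replicate 3, 1 of 4 was lower.

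G protein-gated Kir3 channels, which hyperpolarise neurons under GABA-B, adenosine and opioid receptors, were lower in 4 of 4 (median log2 fold change -0.30, smallest adjusted p 0.645). Kcnj6, their main neuronal subunit, was at 8.15, 12.3, 8.86 and 15.3 CPM under bexarotene and at 14.7, 13.7, 12.2 and 17.6 CPM under vehicle. Bexarotene replicates 1 and 3 were the lowest libraries, and bexarotene replicate 4 was above 3 of the 4 vehicle libraries. The log2 fold change was -0.38 ± 0.20 (SE), with -0.65 between odd-numbered libraries and -0.18 between even-numbered ones. It was below 0 in each of 23 other settings. Kcnj3, Kcnj5 and Kcnj9 had -0.22, -0.46 and -0.13. With bexarotene replicates 1 and 3 left out, 2 of 4 were lower and the median was 0.02, so the opposite signs of Kir2 and Kir3 did not hold in that fit. On even-numbered libraries alone, 3 of 4 were lower (median -0.06). With the term for odd- against even-numbered libraries, 4 of 4 were lower (median -0.33).

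Glial Kir genes were near 0. Kcnj10, the channel by which astrocytes take up potassium, was at 95.0 to 152 CPM under bexarotene and 95.1 to 143 CPM under vehicle, with a log2 fold change of 0.05 ± 0.17 (SE). Its partner Kcnj16 had 0.08 ± 0.15. Kcnj13, a channel of the choroid plexus epithelium, had the highest log2 fold change of the members, 1.27 ± 0.68, with an adjusted p of 0.65. Its libraries had 1.28, 5.17, 0.672 and 1.64 CPM under bexarotene and at 1.79, 0.637, 0.896 and 0.335 CPM under vehicle. One library, bexarotene replicate 2, made the difference, and without it the log2 fold change was 0.40. The same library had 1446 CPM summed over 5 choroid plexus markers, of which 5 of 5 were higher under bexarotene and none was at 0. The other bexarotene libraries had 74.3 to 225 CPM and the vehicle libraries 15.2 to 40.5 CPM of these markers. The part of choroid plexus tissue in the Kcnj13 value was not tested.

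K2P leak channels held 3 tested members, Kcnk4, Kcnk9 and Kcnk12, with bexarotene replicates 1 and 3 as their lowest libraries. Kcnk4, opened by stretch and lipids, was at 5.54, 11.7, 5.39 and 15.2 CPM under bexarotene and at 6.33, 17.7, 11.3 and 10.4 CPM under vehicle. Vehicle replicate 1 was close to the low pair. The log2 fold change of Kcnk4 was -0.27 ± 0.41 (SE), with -0.62 between odd-numbered libraries and -0.02 between even-numbered ones. Kcnk9, an acid-sensitive channel, was at 8.41, 12.1, 8.09 and 11.01 CPM under bexarotene and at 16.2, 11.2, 13.6 and 9.55 CPM under vehicle. The difference was -0.85 between odd-numbered libraries and 0.16 between even-numbered ones, and the log2 fold change was -0.35 ± 0.19 (SE). Kcnk12, a subunit of the halothane-inhibited group, was at 8.01, 13.6, 9.04 and 13.4 CPM under bexarotene and at 13.3, 14.4, 15.3 and 12.1 CPM under vehicle, with -0.33 ± 0.18. Its difference was -0.74 between odd-numbered libraries and 0.03 between even-numbered ones.

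Other leak channels differed less or in the other direction. Kcnk1, the K2P gene with the most counts, was at 58.7 to 73.7 CPM under bexarotene and 58.5 to 94.6 CPM under vehicle (log2 fold change -0.14 ± 0.16, SE, and 0.01 without vehicle replicate 2). Kcnk2, of the same stretch-sensitive branch as Kcnk4, had 0.04 ± 0.07. Kcnk6, known from macrophages and other tissues, was at 4.32 to 7.56 CPM under bexarotene and 3.76 to 6.48 CPM under vehicle, with 0.28 ± 0.23. It was higher in each of 23 other settings, with 0.12 without bexarotene replicate 4 and 0.47 without vehicle replicate 4. Kcnk13, the leak channel of microglia, had 0.14 ± 0.25. In the other direction, Kcna3, described above as known from microglia too, had -0.33 ± 0.19. Of 6 microglial markers, 6 were higher under bexarotene and none was at 0, with a summed level of 256 to 333 CPM under bexarotene and 208 to 246 CPM under vehicle. The part of microglia in the values of these genes and of Kcnj2 was not tested.

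The split between pairs of replicates was then followed over all members. The median log2 difference was -0.15 between odd-numbered libraries and -0.02 between even-numbered ones. For pore-forming Kv subunits these medians were -0.19 and -0.03, for silent subunits -0.36 and -0.11, for calcium- and sodium-activated channels -0.11 and 0.02, and for inward rectifiers -0.04 and 0.04. They were 0.07 and 0.00 for K2P channels and -0.01 and -0.04 for auxiliary subunits. A fit on replicates 1 and 3 alone, with 2 libraries a group and chosen after the data were seen, called 10 of 80 members at an adjusted p under 0.05. Kcnab3 was higher, where 2.06% of all genes were, and 9 members were lower, where 2.34% were. The lower members were Kcna2, Kcnc2, Kcnh7, Kcnj3, Kcnk12, Kcnk9, Kcnma1, Kcnq3 and Kcnv1, with log2 fold changes from -0.37 (Kcna2) to -1.12 (Kcnh7). The same fit on replicates 2 and 4 called 0 members, although 4 had an unadjusted p under 0.05 (2 in each direction). Whether the differences of the pairs differ from each other was not tested. In each pair, bexarotene libraries with both Xist and Y-linked transcripts were set against vehicle libraries with only one kind at more than a trace. Sex and treatment cannot be told apart in these fits.

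**Figure D5:**
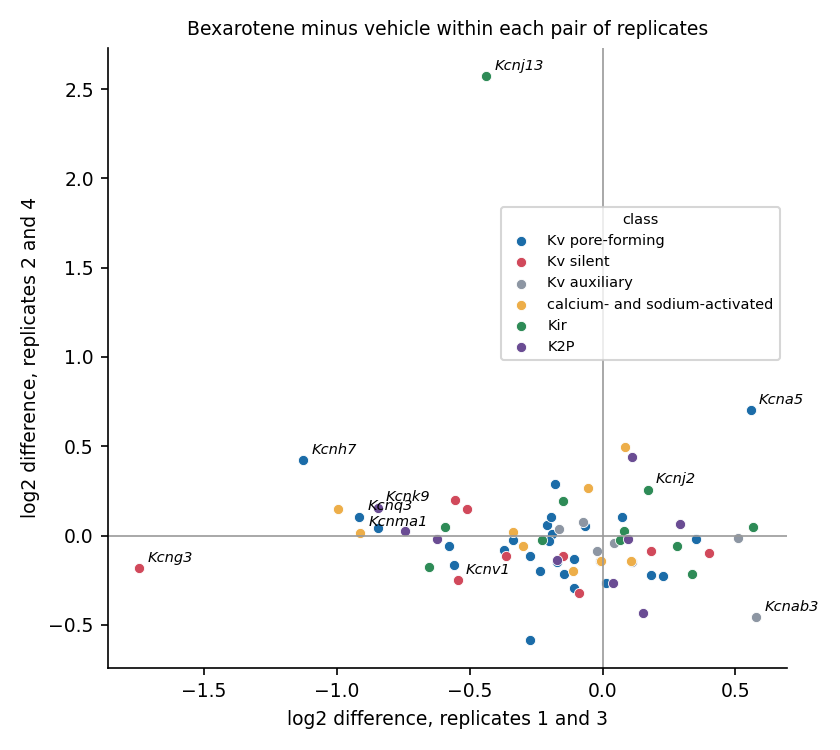
Log2 difference, bexarotene minus vehicle, between odd-numbered libraries (horizontal) and between even-numbered ones (vertical), for the 72 tested members with a mean of at least 1 CPM, coloured by class. Kcnq3, Kcnma1 and Kcnk9 lie far to the left near 0 on the vertical axis, Kcnv1 is below 0 on both axes and Kcnj2 above 0 on both.

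Transcript rows other than the kept one mostly had its sign. Of 39 other rows past the filter, 3 held identical counts, 35 had the sign of the kept row and 0 passed the threshold. Kcnd3, a Kv4 pore subunit chosen after its values were seen, differed more in its second row. That row, at 24.8% of the kept row's counts, was at 19.4, 17.5, 16.5 and 18.1 CPM under bexarotene and at 33.2, 18.04, 22.7 and 19.5 CPM under vehicle. Vehicle replicate 1 was far above the others, and vehicle replicate 2 was inside the bexarotene range. Its log2 fold change was -0.39 ± 0.18 (SE), at an unadjusted p of 0.0526 and an adjusted p of 0.589, against -0.21 for the kept row. The rows of a gene share reads, and how reads were assigned to them is not given, so these are not separate measurements.

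Transcript length ran with the differences over the better-expressed genes of the table. The Spearman correlation of log2 fold change and length was -0.47 over 11453 genes with a known length and a mean level above a minimum. These genes share libraries and are not replicates. The members' median length was 3645 nt, against 2897 nt for all genes tested. Of the 5891 genes between 2689 and 5062 nt, the interquartile range of the members, 56.3% were lower, with a median of -0.02. With an offset for length and GC content, 55 of 78 members were lower and their median was -0.08, and 0 passed the threshold.

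Genes that work with potassium channels but are no members were mostly lower too. Of 16 tested partners and regulators, 14 were lower and 0 passed the threshold. Their median log2 fold change was -0.11, with -0.12 between odd-numbered and -0.08 between even-numbered libraries. Amigo1, an adhesion protein of Kv2 clusters, was at 75.2 to 80.7 CPM under bexarotene and 79.0 to 94.4 CPM under vehicle (-0.17 ± 0.08, SE). Nedd4l, a ubiquitin ligase of several channels, had -0.17 ± 0.08. Of 5 genes of HCN pacemaker channels and their subunit, 4 were lower with a median of -0.16 (-0.28 between odd-numbered and 0.01 between even-numbered libraries). Pex5l, the subunit, had -0.27 ± 0.16.

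The sodium-potassium pump and the cation-chloride cotransporters, which restore the gradients, were lower in 8 of 11 (median log2 fold change -0.06), and 0 passed the threshold. Slc12a4, a potassium-chloride cotransporter of many cell types, was higher in each bexarotene library, at 17.9 to 21.6 CPM against 14.6 to 17.1 CPM. Its log2 fold change was 0.28 ± 0.10 (SE), at an adjusted p of 0.485 by the quasi-likelihood F test of edgeR. Its relative Slc12a7 had 0.53 ± 0.27.

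Members below the filter were Kcna7, Kcna10, Kcne1, Kcnh8, Kcnj1, Kcnj15, Kcnk7, Kcnk15, Kcnk16, Kcnk18, Kcnmb3 and Kcnv2. Kcne1, the cardiac partner of Kcnq1, the renal Kcnj1 and the pancreatic Kcnk16 had 0 counts in all 8 libraries, where a count of 0 allows up to 3 counts per library. The highest of the 12 was Kcnj15, at 1 to 44 counts. None of these can be compared between groups at this depth.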

How the data were processed

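RNA was measured in 8 cortex libraries, 4 per group, with groups and replicate numbers taken from the sample titles. Per the labels' protocols, libraries were made with a stranded mRNA kit. The authors deposited raw read counts per RefSeq transcript (28644 rows). The submitters' processing notes name build mm9 and edgeR. The sources used here do not name the aligner, counting program or strand setting, so reads of overlapping genes cannot be told apart. In the deposited table, 0 columns were left out.

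Groups were compared in edgeR 4.0.16 (R 4.3.3) by its quasi-likelihood test, with TMM scaling, filterByExpr, robust dispersion estimation and no term but the group. The Benjamini-Hochberg adjustment covered 21285 rows. CPM are counts scaled to a common library size after TMM, and log2 CPM used a prior count of 2. Differences within pairs of replicates are of mean log2 CPM. The SE was derived from the F statistic. In simulated data of this design on 20988 rows, 34% of genes changed 1.5-fold and 99% of those changed 3-fold were recovered, with 4 false calls. Changed genes were drawn only from rows above a minimum mean level, which some members do not reach. The simulated libraries held no split of odd- and even-numbered replicates.

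Members, classes, gene lists and the naming rule were chosen with earlier results of these data known. Named members were those past the threshold, the 3 with the smallest p per class at a mean of at least 1 CPM, the one with the most counts per class, and those whose groups did not overlap. Per list of other genes, the 2 with the smallest p were named. Others were added in groups. Some members and 1 gene of these lists are not reported singly here.

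The residuals of libraries with the same number, after the group means were subtracted, correlated at 0.43, 0.28, 0.14 and 0.16 for replicates 1 to 4, so the numbers were treated as pairs and a replicate block was fitted as an alternative. The numbers come from the titles alone, and bexarotene replicate 3 correlated more with vehicle replicate 1 (0.44). No libraries of a group differed by as little as sampling noise (lowest chi-square per degree of freedom 11.7). Alternatives were RLE, upper quartile and no composition scaling, 2 other filters, DESeq2 1.42.0, edgeR's exact test, sums over rows, the block, a term for replicates 1 and 3 against 2 and 4, a length and GC offset (lengths from GENCODE M21), and each library left out. Added after seeing the data were fits without bexarotene replicates 1 and 3, and on replicates 1 and 3 or 2 and 4 alone.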

Additional observations from a re-analysis of the deposited data

Results flagged for a closer look

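Kcnip2 in vehicle replicate 1, at 53.6 CPM, was far from the other 3 vehicle libraries. Its gap to the nearest of them was 0.865 of the group's range, above the 95% limit of Dixon's test for groups of 4. It was the 1 such case among 46 groups of libraries examined, and chance alone flags about 1 group in 20. Without this library the log2 fold change of Kcnip2 was 0.06 in place of -0.07.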

How the results depend on the processing

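Across the 20 alternatives planned, 0 members passed the threshold in any, while calls over all genes went from 1 to 104 (DESeq2), 37 (exact test), 3 (cluster term) and 2 (without bexarotene replicate 2), and of the fits added later to 710 (odd-numbered libraries alone), 0 (even-numbered alone) and 0 (bexarotene replicates 1 and 3 left out). The replicate block left 50 of 78 members lower at a median of -0.10, and changed no call of a member. Signs held in every alternative in which they were tested (all 23 for 15 of them) for 17 members, 13 lower and 4 higher, and differed in at least 1 for 61. The cause of these shifts was not tested.

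Log2 fold changes that turned were, for Kcnab2, 0.021 with upper quartile scaling, 0.017 without composition scaling, 0.0015 with the replicate block and 0.0013 with the cluster term, and for Kcnip4 0.016 with the length and GC offset and 0.012 with offset and block. With bexarotene replicates 1 and 3 left out, the median of calcium- and sodium-activated channels was -0.028, and Kcna2 (0.13), Kcnab2 (0.22), Kcne4 (-0.25), Kcnip4 (0.10), Kcnn1 (0.016) and Kcnn2 (0.073) turned. On odd-numbered libraries alone, 10 members passed, the medians were -0.41 for silent subunits and 0.068 for K2P channels, and Kcnab2 (0.042), Kcnj13 (-0.45) and Kcnk1 (0.040) turned. On even-numbered libraries alone, Kcne4 (-0.033), Kcnf1 (0.15), Kcnip4 (0.035), Kcnj4 (-0.058), Kcnk12 (0.022), Kcnk9 (0.15), Kcnma1 (0.016) and Kcnq3 (0.11) turned. Leaving out 1 library at a time, medians ran from -0.075 (without vehicle replicate 3) to 0.020 (without bexarotene replicate 1) for auxiliary subunits, from -0.25 (without bexarotene replicate 4) to -0.031 (without vehicle replicate 2) for calcium- and sodium-activated channels and from -0.25 (without vehicle replicate 3) to 0.012 (without vehicle replicate 2) for K2P channels. Single members ran from -0.12 to 0.098 (Kcnab2), -0.15 to 0.058 (Kcnip2), -0.11 to 0.022 (Kcnip4), -0.24 to 0.0068 (Kcnk1) and -0.12 to 0.015 (Kcnt1).

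With 4 libraries a group, the simulation recovered 34% of 1.5-fold changes, and most members differed by less, so a real difference of that size could go uncalled. Members at under 1 CPM rest on few counts.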
